A study of Mus musculus with 14 samples.

Results

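The voltage-gated calcium channel alpha-1 subunits are the pore-forming proteins through which calcium enters neurons when the membrane is depolarized. Hippocampal RNA of mice labelled LPAR2-/- and of WT mice was compared here for 8 of these genes, namely Cacna1a, Cacna1b, Cacna1c, Cacna1d, Cacna1e, Cacna1g, Cacna1h and Cacna1i, taken by name from 24421 genes in the deposited count table. All 8 genes passed the filter on low counts and were among the 14897 genes tested. The remaining alpha-1 genes, Cacna1f of retinal photoreceptors and Cacna1s of skeletal muscle, are given beside them.

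The samples were whole hippocampi by the labels, although the study's text also speaks of the dentate gyrus, of naive male mice of the strain given as 129.C57Bl6. By their labels the mice were 10 to 12 weeks old, whereas the series description calls them middle aged or older. There were 7 mice labelled LPAR2-/- and 7 labelled wildtype control (WT), with 1 library each. According to the methods, the mutant allele lacks part of exon 2 of Lpar2, the gene of a lysophosphatidic acid receptor, and the mutants were bred as homozygotes beside a separate control colony on a mixed background. Genotype and colony therefore cannot be told apart. Libraries held 15434620 to 23258949 counts. Lpar2 had 144 to 234 counts in the mice labelled LPAR2-/- and 27 to 66 in WT mice, so gene-level counts of the targeted gene ran against the label, and these counts do not separate the deleted part of exon 2. All directions below therefore refer to the labels. Excitatory neuron markers summed to 8697 to 10860 CPM (counts scaled to a common library size) over all 14 mice, and the 4 dentate gyrus markers to 351 to 590 CPM. The library of mouse 3 labelled LPAR2-/- stood apart with 3512 CPM of oligodendrocyte markers, against 853 to 1826 CPM in the other mice. That of mouse 2 in the same group held 280 CPM of choroid plexus markers, against 25.6 to 49.7 CPM in the others.

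Calcium channels are named by the current they carry. Cacna1c and Cacna1d encode the L-type pores Cav1.2 and Cav1.3, which sit largely on cell bodies and dendrites and couple calcium entry to gene transcription. Cacna1a (P/Q-type), Cacna1b (N-type) and Cacna1e (R-type) encode pores that trigger transmitter release and supply calcium to dendrites and spines. The L-, P/Q-, N- and R-type channels are classed together as high-voltage-activated and are assembled with auxiliary beta and alpha-2-delta subunits. Cacna1g, Cacna1h and Cacna1i encode the T-type pores Cav3.1, Cav3.2 and Cav3.3, which open near the resting potential, support burst firing and form channels without those auxiliary subunits.

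The division into high-voltage-activated and T-type genes can be read in the coding sequence of the pore, and these windows are shown because this division groups the genes in the results below. Each channel protein has repeated domains numbered I to IV, and 1 acidic residue of each domain lines the selectivity filter that lets calcium pass. For each gene the transcript with the longest complete coding sequence in the basic annotation of GENCODE M21 was used. That annotation is on mouse build GRCm38, the mm10 of the count table. The domain III windows, 30 coding bases 5′ to 3′ with the filter codon in capitals, were as follows.
Cacna1a (P/Q-type): gtgtccacaggaGAGggctggccacaggtc
Cacna1b (N-type): gtgtccacgggaGAGgggtggcccatggtg
Cacna1c (L-type): gtctccaccttcGAAgggtggccagagctg
Cacna1d (L-type): gtctcaacttttGAGggctggcccgcgttg
Cacna1e (R-type): gtctctacagggGAAggatggcctcaggtt
Cacna1g (T-type): ctggcctccaagGATggctgggttgacatc
Cacna1h (T-type): ctgtcatccaagGATggctgggtaaacatc
Cacna1i (T-type): ttggcctccaagGATggctgggtgaacatc
In domain IV the windows were as follows, each lying within 1 coding exon at the mm10 position given.
Cacna1a (chr8:84611599-84611628, + strand, exon 35): agcgccacaggaGAAgcgtggcacaacatc
Cacna1b (chr2:24635210-24635239, - strand, exon 36): agtgccactgggGAGgcctggcatgagatc
Cacna1c (chr6:118614047-118614076, - strand, exon 36): tgtgccaccggaGAGgcctggcaggacatc
Cacna1d (chr14:30075941-30075970, - strand, exon 36): tgtgcaacagggGAAgcctggcaggagatc
Cacna1e (chr1:154425972-154426001, - strand, exon 37): agtgccacggggGAGgcttggcaggagatt
Cacna1g (chr11:94416412-94416441, - strand, exon 32): gtctccactggtGACaactggaatggtatt
Cacna1h (chr17:25377768-25377797, - strand, exon 31): gtgtccactgggGACaactggaatgggatc
Cacna1i (chr15:80388485-80388514, + strand, exon 31): gtctccacaggcGATaactggaatgggatt
The filter codon of domain III read GAA or GAG, for glutamate, in 5 of 5 high-voltage-activated genes and GAT, for aspartate, in 3 of 3 T-type genes. Domain IV showed the same division, with GAA or GAG against GAC or GAT. In domains I and II all 8 genes carried a glutamate codon. The domain III window crossed an exon junction in each high-voltage-activated gene and lay in a single exon in each T-type gene.

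Proteins translated from these transcripts were 2179 (Cacna1d) to 2381 (Cacna1g) residues long. Aligned over positions without gaps, the 15 pairs of a high-voltage-activated and a T-type protein were 30.2% to 33.7% identical. The T-type proteins shared 59.5% to 63.4% with each other, and the 10 pairs of high-voltage-activated proteins 44.5% to 69.7%. Cacna1c and Cacna1d were the closest pair at 69.7%. The genes lie on 8 different chromosomes and differ more in their introns than in their coding length. In mm10, Cacna1h is the most compact at chr17:25374287-25433783 (59497 bases, 35 exon blocks, minus strand), and Cacna1c the longest at chr6:118587240-119196409 (609170 bases, 53 exon blocks, minus strand). Coding GC content ran from 49.8% in Cacna1d to 60.0% in Cacna1h.

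In WT hippocampus the T-type gene Cacna1h had the highest level of the family. Levels between genes are given as CPM per kb of counted exon, which corrects for gene length. The level of Cacna1h was 56.3 ± 4.88 (SD, n = 7), 2.43 times that of Cacna1a at 23.1 ± 2.22 (SD, n = 7). Cacna1h exceeded Cacna1a in 7 of 7 WT mice, and their ranges did not overlap. Next came Cacna1c at 17.3 ± 1.46 (SD, n = 7). Cacna1e (15.4 ± 1.82, SD, n = 7) and Cacna1b (15.4 ± 1.20, SD, n = 7) followed and did not differ beyond their spread, since Cacna1e was the higher in 3 of 7 mice. Cacna1c exceeded Cacna1e in 5 of 7 mice, with overlapping ranges.

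The lower part of the order held Cacna1d at 11.8 ± 0.537 (SD, n = 7), Cacna1i at 9.94 ± 1.52 (SD, n = 7) and Cacna1g at 7.95 ± 1.25 (SD, n = 7). Cacna1d lay below Cacna1b in 7 of 7 mice without overlap. Cacna1i and Cacna1g overlapped in range, with Cacna1i higher in 6 of 7 mice. The 8 genes thus spanned 7.08-fold from lowest to highest mean level. The other two alpha-1 genes were at the bottom. Cacna1f had 3 to 13 counts per library and Cacna1s 5 to 17, and their mean WT levels were 0.0775 and 0.0670, where the level of Cacna1g was 103 times that of Cacna1f. In the mice labelled LPAR2-/- the order was the same, except that Cacna1b and Cacna1e changed places, at 15.3 ± 1.23 and 14.9 ± 1.16 (SD, n = 7), where Cacna1b was higher in 4 of 7 mice.

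**Figure D1:**
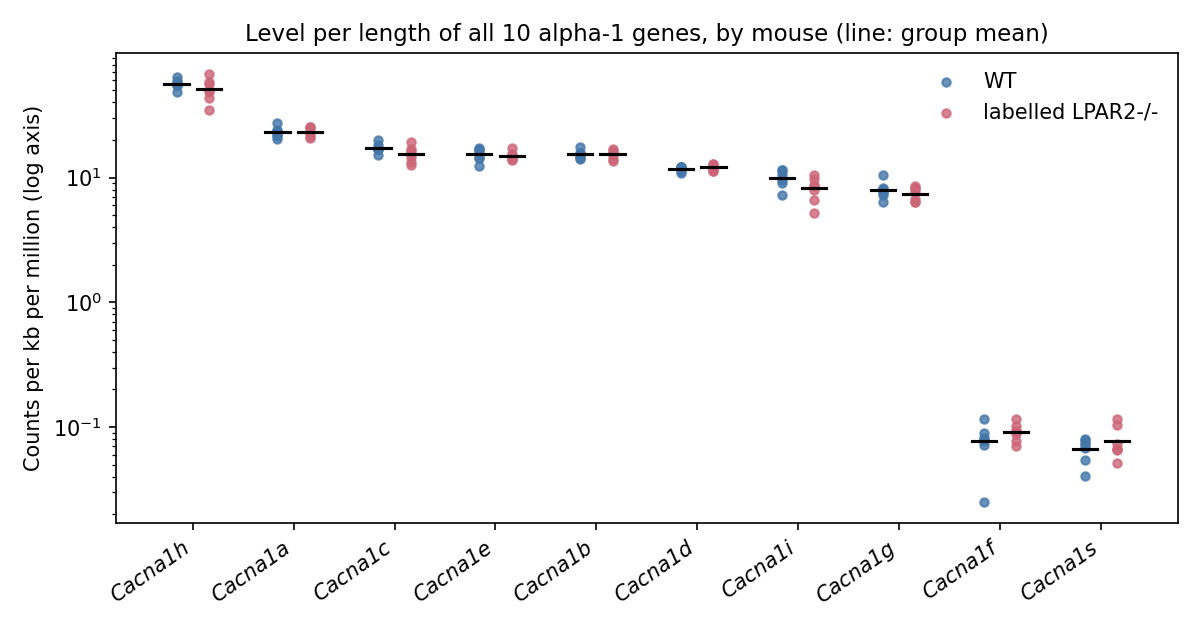
Level per length (CPM per kb, log axis) of all 10 alpha-1 genes in each of 7 WT and 7 mice labelled LPAR2-/-, ordered by the WT mean, with a line at each group mean. Cacna1h stands above every other gene in both groups, and Cacna1f and Cacna1s lie far below the 8 studied genes.

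As a share of the summed level of the 8 genes, T-type genes made up 47.2% ± 1.61 (SD, n = 7) in WT mice, the P/Q-, N- and R-type genes 34.3% ± 1.43 and the L-type genes 18.5% ± 0.439. In the mice labelled LPAR2-/- the shares were 45.1% ± 4.42, 36.1% ± 2.95 and 18.7% ± 1.56 (SD, n = 7). The group ranges overlapped for each class. The SD of the T-type share was larger in the mice labelled LPAR2-/-, whose values ran from 37.2% to 51.2%, than in WT mice, whose values ran from 44.3% to 49.0%. Transcript shares are not channel shares, since protein was not measured.

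The comparison of mice labelled LPAR2-/- with WT addressed whether calcium channel genes differ between the genotypes. None of the 8 genes passed the test of a difference between the groups. In edgeR's quasi-likelihood test with Benjamini-Hochberg adjustment over all genes tested, 0 of 8 passed an adjusted p of 0.05, against 6.77% of all genes (1009 of 14897). At an unadjusted p under 0.05 the count was also 0 of 8, against 22.4% of all genes, while DESeq2 and limma on the authors' normalized values each called 0 of 8. Without mice 2 and 3 labelled LPAR2-/- the adjusted count was again 0 of 8, against 6.38% of all genes, while Cacna1c (-0.20, edgeR unadjusted p = 0.0204, adjusted p = 0.133) and Cacna1i (-0.35, edgeR unadjusted p = 0.0405, adjusted p = 0.194) had an unadjusted p under 0.05, as did 22.9% of all genes in that fit. Groups overlapped for all 8 genes, and 1.77% of all genes had ranges that did not. The median log2 fold change was -0.08 over the 8 genes and 0.00292 over all genes, with 6 of 8 genes below 0 against 48.9% of all genes.

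**Figure D2:**
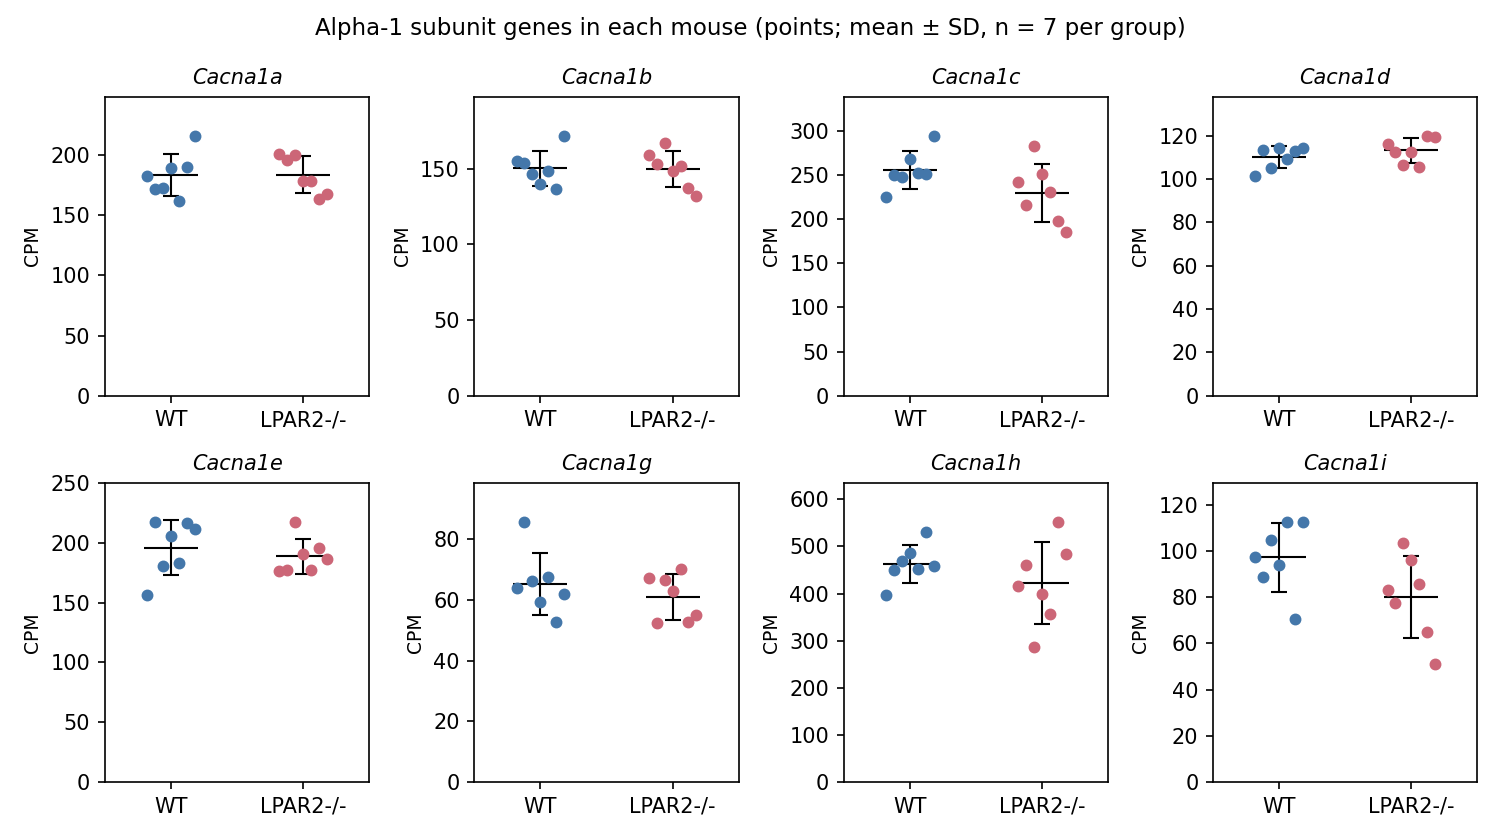
CPM of each of the 8 genes in 7 WT mice and 7 mice labelled LPAR2-/- (points), with mean and SD; each axis starts at 0. The groups overlap for every gene, and the spread of Cacna1h and Cacna1c is wider on the right of their panels.

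Among the L-type genes, Cacna1c had CPM values of 225, 251 and 295 in WT mice (lowest, median and highest) and of 186, 231 and 283 in mice labelled LPAR2-/-. In 3 of the latter the value lay below every WT mouse, while mouse 3 was the highest of its group. The fitted log2 fold change was -0.15 (SE 0.0821, edgeR adjusted p = 0.286), with a 95% interval of the fold from 0.797 to 1.01. Without mouse 3 labelled LPAR2-/- the adjusted p of Cacna1c was 0.0841, the lowest of its leave-one-out fits, and the highest was 0.426. Cacna1d was the steadiest gene of the family. Its WT values were 101.5, 113 and 114 CPM, those of the mice labelled LPAR2-/- were 106, 112 and 120.0 CPM, and its log2 fold change was 0.04 (SE 0.0398, edgeR adjusted p = 0.587). Its coefficient of variation was 4.57% in WT mice and 5.10% in the others, and the interval of the fold, 0.971 to 1.09, was the narrowest of the 8.

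For Cacna1a, the main release channel of many central synapses, WT mice had 162, 182 and 216 CPM and mice labelled LPAR2-/- 164, 179 and 201 CPM. The values lay within the WT range in all 7 of these mice. The log2 fold change was 0.00316 (SE 0.0634, edgeR adjusted p = 0.987), with a fold interval from 0.913 to 1.10. Cacna1b, which shares the presynaptic role, had 136, 148 and 172 CPM in WT mice and 132, 152 and 167 CPM in the others. Its log2 fold change was -0.00338 (SE 0.0569, edgeR adjusted p = 0.984) and the fold interval 0.918 to 1.08. Cacna1e had 157, 206 and 218 CPM against 177, 187 and 218 CPM, with a log2 fold change of -0.05 (SE 0.0710, edgeR adjusted p = 0.713, -0.10 without WT mouse 1 and -0.03 without WT mouse 2) and a fold interval from 0.869 to 1.07. For both release channels, folds under 0.913 or over 1.10 thus lay outside the interval.

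The T-type genes had the widest intervals. Cacna1i had 70.5, 97.6 and 113 CPM in WT mice and 51.3, 83.0 and 103 CPM in mice labelled LPAR2-/-. In 6 of these 7 mice the value lay below the WT median, and in 2, mice 6 and 7, below every WT mouse. Mice 6 and 7 also had the smallest libraries of their group (16663752 and 15434620 counts), the part of which was not tested. The log2 fold change of -0.27 (SE 0.141, edgeR adjusted p = 0.267) was the lowest of the family, with a fold interval from 0.671 to 1.02. Over single genes, an exact two-sided permutation test of the 3432 arrangements of the mice gave p = 0.0845 for Cacna1i and p = 0.0979 for Cacna1c, where the smallest possible p is 0.000583. Cacna1g had 52.6, 63.8 and 85.8 CPM against 52.4, 63.0 and 70.3 CPM, with a log2 fold change of -0.10 (SE 0.0971, edgeR adjusted p = 0.596). Without WT mouse 2, which had the highest value, it was -0.02.

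Cacna1h had 397, 458 and 530 CPM in WT mice and 286, 415 and 552 CPM in mice labelled LPAR2-/-. This group held both the lowest value of all 14 mice, in mouse 3, and the highest, in mouse 6. Its coefficient of variation was 20.7% against 8.67% in WT mice. The log2 fold change was -0.13 (SE 0.114, edgeR adjusted p = 0.525), and the fold interval ran from 0.770 to 1.08. Without mouse 3 labelled LPAR2-/-, which also held the most oligodendrocyte marker counts, it was -0.06, and without mouse 6 of that group, which had the highest value, it was -0.21. Whether the makeup of that library has a part in the low value was not tested. In whole tissue, fewer cells of a type and less RNA per cell cannot be told apart.

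Differences between mice of the same group were ordered by gene. After the mean of each group had been subtracted, log2 CPM values were compared over the 14 mice, and relations were tested by 100000 permutations within groups, two-sided, with Benjamini-Hochberg adjustment. Of the 28 pairs of genes, 9 passed an adjusted p of 0.05 by Pearson's r, and 0 by Spearman's rho. Cacna1h rose with Cacna1d (r = 0.77, p = 0.00111, adjusted p = 0.0311; rho = 0.70, p = 0.0106, adjusted p = 0.0659) and ran against Cacna1i (r = -0.72, p = 0.0105, adjusted p = 0.0429; rho = -0.75, p = 0.00543, adjusted p = 0.0659). The first relation had r = 0.73 without the 2 mice farthest from the median of Cacna1d, and the second r = -0.66 without the 2 farthest in Cacna1h. Cacna1h also ran against Cacna1b (r = -0.69, adjusted p = 0.0429) and Cacna1g (r = -0.61, adjusted p = 0.0429). The T-type genes therefore did not vary as 1 group.

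Over the 14 mice Cacna1b, Cacna1c and Cacna1i varied together, and Cacna1a with Cacna1b (r = 0.66) and Cacna1c (r = 0.65). Cacna1b and Cacna1i had r = 0.77 (p = 0.00236, adjusted p = 0.0330; rho = 0.60, adjusted p = 0.124), and r = 0.69 without the 2 farthest mice. Cacna1c and Cacna1i had r = 0.76 (p = 0.00447, adjusted p = 0.0417), but r = 0.54 without mice 3 and 7 labelled LPAR2-/-, and 0.28 in WT mice alone against 0.96 in the others. Cacna1b and Cacna1c had r = 0.69 (p = 0.00858, adjusted p = 0.0429), but r = 0.49 without the 2 farthest mice, and 0.36 in WT mice against 0.90 in the others. Cacna1a and Cacna1b had 0.42 in WT mice against 0.91 in the others. Cacna1a and Cacna1c had nearly equal values of 0.64 and 0.71, whereas Cacna1d and Cacna1e, a pair that did not pass, had 0.95 in WT mice and -0.20 in the others. These differences between the groups were not tested. Library totals had r = -0.71 with Cacna1h (adjusted p = 0.159) and r = 0.75 with Cacna1i (adjusted p = 0.0830), neither past the threshold. Within the mice labelled LPAR2-/- they had r = 0.95 with Cacna1i and 0.94 with Cacna1c, against 0.34 and -0.52 in WT mice. With Cacna1h they had r = -0.74 in the mice labelled LPAR2-/- and -0.71 in WT mice. The part of library totals was not tested.

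Cell type markers were set beside the same differences. Of 144 relations between the 8 genes and 18 measures (16 marker lists, an activity gene list and the library total), 2 passed an adjusted p of 0.05 by both r and rho. The first was Cacna1h with the dentate gyrus markers Prox1, C1ql2, Dsp and Tdo2, which label the granule cells that receive the main cortical input. Cacna1h rose with their mean log2 CPM (r = 0.90, permutation p = 8e-05, adjusted p = 0.0115; rho = 0.85, p = 0.00087, adjusted p = 0.0480). The relation was as close without the 2 farthest mice (r = 0.91), within the mice labelled LPAR2-/- (r = 0.90, n = 7) and within WT mice (r = 0.95, n = 7). The second was Cacna1g with interneuron markers (r = 0.79, permutation p = 0.00024, adjusted p = 0.0173; rho = 0.88, p = 0.00053, adjusted p = 0.0480), with r = 0.89 and r = 0.90 within the groups. The dentate markers also had r = 0.78 with Cacna1d, r = -0.75 with Cacna1b and r = -0.77 with Cacna1i, and the interneuron markers r = -0.84 with Cacna1h (rho = -0.85). None of these passed after adjustment (adjusted p = 0.0830 for each r).

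Cacna1a with excitatory neuron markers passed by rho alone (r = 0.74, adjusted p = 0.083; rho = 0.82, adjusted p = 0.0480). The other lists gave values that did not pass. Oligodendrocyte markers had r = 0.76 with Cacna1c and r = -0.73 with Cacna1h, neither past the adjusted threshold. Without mice 3 and 6 labelled LPAR2-/- these were 0.54 and -0.16, and the relation with Cacna1h had r = 0.06 in WT mice alone. The activity genes Fos, Fosb, Arc, Npas4, Egr2 and Nr4a1, which the study picked out in these libraries, had r between -0.39 (Cacna1b) and 0.26 (Cacna1e) with the 8 channel genes. All 4 dentate genes had a log2 fold change above 0 in mice labelled LPAR2-/-. So did every tested gene of the striatum (5), oligodendrocyte (4), smooth muscle (3), choroid plexus (3) and precursor (2) lists. Above 0 were 1 of 6 interneuron genes, 1 of 3 genes each for CA1, CA3 and endothelium, and 7613 of 14897 genes tested. The other lists had genes on both sides of 0. Of the dentate genes 1, Tdo2, passed the test (log2 fold change 0.45, edgeR adjusted p = 0.0244). In the other 15 lists tested, 1 gene passed, the meningeal marker Lum (0.54, edgeR adjusted p = 0.0132). Over all genes tested the share that passed was 6.77%. The blood markers Hba-a1 and Hbb-bs had 0 counts in every library. The mean dentate marker level was 0.20 higher on the log2 scale in mice labelled LPAR2-/-, with overlapping ranges of 6.14 to 6.77 against 5.95 to 6.47.

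**Figure D3:**
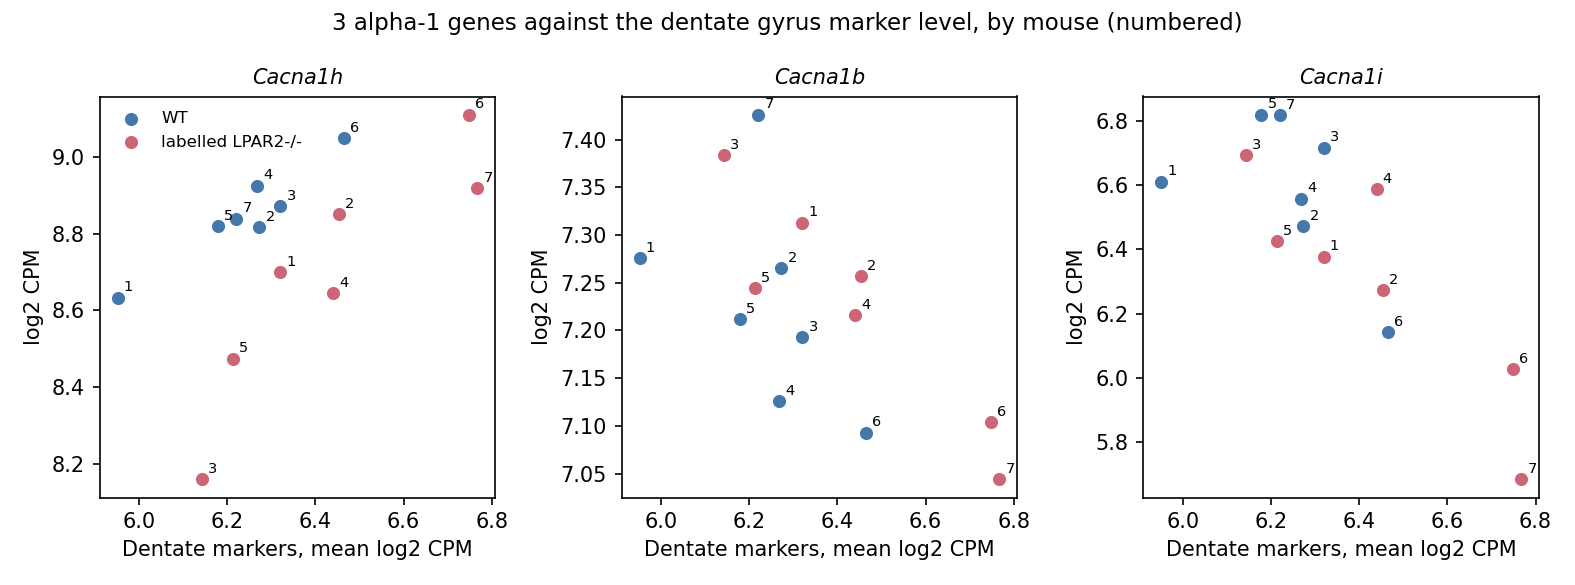
log2 CPM of Cacna1h, Cacna1b and Cacna1i (vertical axes) against the mean log2 CPM of the 4 dentate gyrus markers (horizontal axes) in each numbered mouse. Cacna1h rises along the axis in both groups, with the mice labelled LPAR2-/- mostly below WT mice of the same marker level, while Cacna1b and Cacna1i fall.

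Because Cacna1h followed the dentate markers within both groups, their mean log2 CPM was added to the edgeR fit as a covariate, a choice made after the relation had been seen. In that fit Cacna1h was lower in mice labelled LPAR2-/-, with a log2 fold change of -0.36 (SE 0.0613, edgeR adjusted p = 0.00201), or 0.779-fold. It passed in 14 of 14 fits that left out 1 mouse, at -0.39 to -0.28. The share of all genes called rose as well, to 11.8%. With Tdo2 taken out of the markers the value of Cacna1h was -0.28 (SE 0.0570, edgeR adjusted p = 0.00558), where 11.5% of all genes were called. The other 7 channel genes did not pass in either fit. Cacna1i moved from -0.27 to -0.08 and Cacna1c from -0.15 to -0.07 with the full marker set, and they stood at -0.16 and -0.11 without Tdo2. The marker level differed between the groups itself and came from the same libraries, so the value of Cacna1h with and without the covariate answers different questions. In each group the highest marker level was in the smallest library, 6.77 in mouse 7 labelled LPAR2-/- (15434620 counts) and 6.47 in WT mouse 6 (16373410 counts). By contrast, WT mouse 7 had 6.22 with 17412871 counts. Whether the covariate carries library size was not tested.

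**Figure D4:**
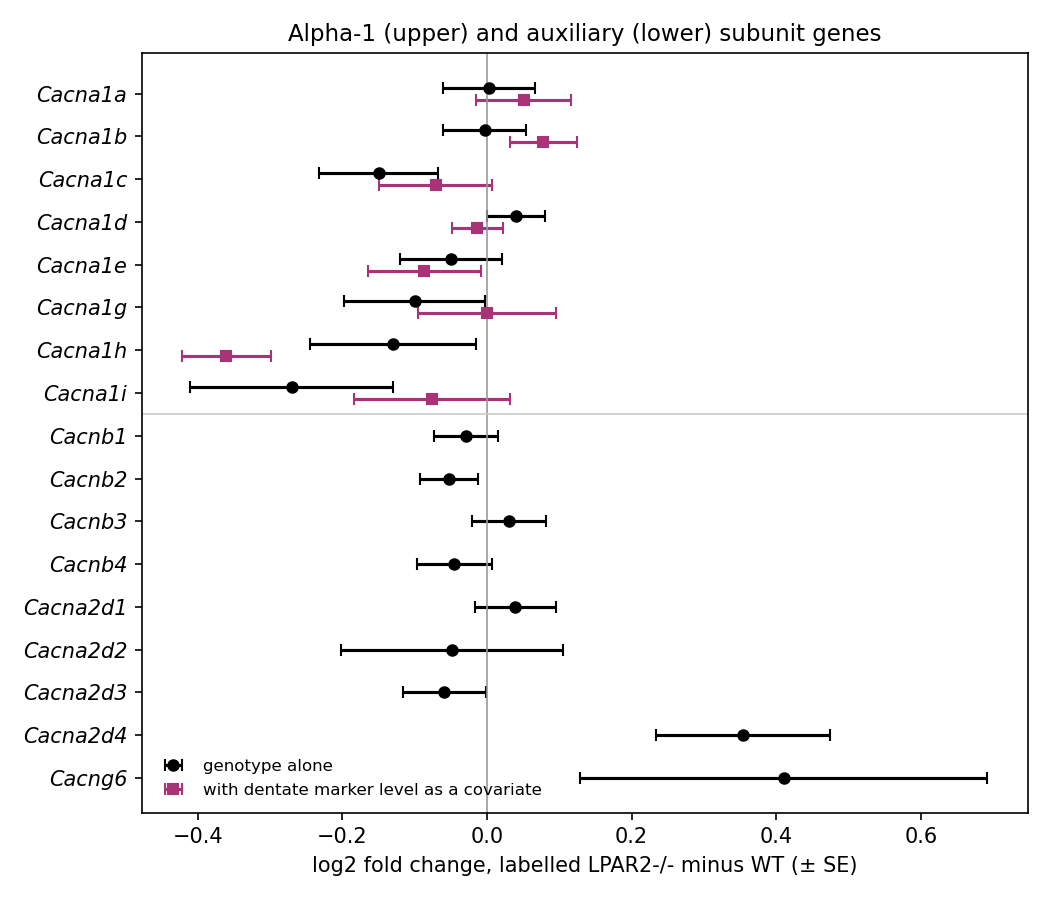
log2 fold changes of the 8 alpha-1 genes and of 9 auxiliary subunit genes, mice labelled LPAR2-/- minus WT, with standard errors; circles are from the fit on genotype alone and squares from the fit with the dentate marker level. Cacna1h moves from -0.13 to -0.36 between the fits, and no other alpha-1 gene lies beyond the -0.27 of Cacna1i in either fit.

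For each channel gene, the 3 genes whose values followed it most closely over the 14 mice were taken from all genes tested, as a description without a test. Cacna1h was followed by Tnip2 (r = 0.985), Grm2 (r = 0.97), which encodes a presynaptic metabotropic glutamate receptor, and Scrt2 (r = 0.96). Cacna1b was followed by Dlg2 (r = 0.96), which encodes a synaptic scaffold protein, Cntnap2 (r = 0.95), an axonal adhesion molecule, and Ids (r = 0.95). Cacna1c was closest to Ubr4, Sort1 and Snx29 (r = 0.95, 0.94 and 0.94), and Cacna1i to Nkd2, Clpb and the sodium channel gene Scn7a (r = 0.95, 0.95 and 0.94). The genes closest to Cacna1a were Slc9a8, Zfyve9 and Sec16b (r = 0.95, 0.94 and 0.93), those to Cacna1g were Vat1l, Cxxc4 and the histamine receptor gene Hrh3 (r = 0.93, 0.92 and 0.92). Cacna1d was followed by Usp47, Nup153 and Dyrk1a (r = 0.92, 0.91 and 0.90), and Cacna1e by Morc2a, Frs2 and Mgea5 (r = 0.92, 0.92 and 0.92). No channel gene was among the 3 closest genes of another.

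Auxiliary subunits set how many pores reach the membrane and how they open. Of 10 genes listed, 9 were tested and 0 passed the edgeR test, against 6.77% of all genes tested. DESeq2 called 0 of them. At an unadjusted p under 0.05 there was 1 of 9, against 22.4% of all genes. The beta subunit genes Cacnb1, Cacnb2, Cacnb3 and Cacnb4 had log2 fold changes between -0.05 and 0.03 on the log2 scale. In WT mice their CPM means ran from 72.1 (Cacnb2) to 231 (Cacnb3). Among the alpha-2-delta genes, Cacna2d1, a target of gabapentin, had 235.7, 273 and 313 CPM in mice labelled LPAR2-/- and 250.5, 262.5 and 270.2 CPM in WT mice. Its log2 fold change was 0.04 (SE 0.0554, edgeR adjusted p = 0.725), Cacna2d2 had -0.05 and Cacna2d3 -0.06. Leaving out 1 mouse gave -0.00139 to 0.07 for Cacna2d1 and -0.09 to -0.03 for Cacna2d3. Cacna2d2 was highest in mouse 3 labelled LPAR2-/- (33.0 CPM, against 13.8 to 22.7 CPM in the rest of that group), and its log2 fold change ran from -0.21 to 0.03 when 1 mouse was left out. Cacna2d4 had the lowest p of the list, at low values of 1.79, 2.00 and 2.41 CPM against 1.32, 1.68 and 1.98 CPM in WT mice, and a log2 fold change of 0.35 (SE 0.120, edgeR adjusted p = 0.0904). Cacng6 (0.41, SE 0.281, edgeR adjusted p = 0.415) had at most 1.41 CPM in any mouse, and Cacng1 was at or near 0 CPM and was not tested.

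Other genes of the pathway were described by lists. Of 19 tested regulators of calcium channels and calcium signalling (21 listed), 1 rose and 0 fell, a share near the 6.77% of all genes called. The gene that passed was Camk2g, a subunit of calcium/calmodulin-dependent kinase II, with 289 ± 11.04 CPM in WT mice and 336 ± 31.7 CPM in mice labelled LPAR2-/- (SD, n = 7). Its log2 fold change was 0.21 (SE 0.0535, edgeR adjusted p = 0.0249), but the call held in only 11 of 14 leave-one-out fits and was lost without mouse 1 labelled LPAR2-/-, WT mouse 2 or WT mouse 4 (highest adjusted p 0.0581). Gem, whose product restrains channel delivery to the membrane, had the lowest value (-0.30, SE 0.163, edgeR adjusted p = 0.294). The median over the list was -0.03, against 0.00292 over all genes.

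At the release site P/Q- and N-type channels are tethered by RIM, RIM-binding and ELKS proteins. Of its 14 genes 0 passed the edgeR test, against 6.77% of all genes tested, and DESeq2 called 0. At an unadjusted p under 0.05 there were 2 of 14, against 22.4% of all genes. These were Erc1 (-0.16, SE 0.0653, edgeR adjusted p = 0.163) and Rimbp2 (-0.13, SE 0.0609, edgeR adjusted p = 0.202). Rims1 was the highest of the list at 0.12 and Syt2 the lowest at -0.19. Of 15 genes for calcium stores and removal, 1 rose and 0 fell, again a share near the 6.77% of all genes called. Slc8a3, a sodium-calcium exchanger, had 14.1, 16.2 and 20.8 CPM in WT mice and 19.2, 21.3 and 24.5 CPM in mice labelled LPAR2-/-. The groups overlapped, the log2 fold change was 0.35 (SE 0.0841, edgeR adjusted p = 0.0208), and the call held in 14 of 14 leave-one-out fits. Itpr3 (0.37, SE 0.193, edgeR adjusted p = 0.272) and Itpr1 (-0.22, SE 0.0994, edgeR adjusted p = 0.210), both of which encode store release channels, were the highest and the lowest of the list and did not pass.

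Cacna1a lies at chr8:84415364-84640249 in mm10, on the same chromosome as Lpar2 and 14.6 Mb beyond it. Of the other genes tested within 1 Mb of Cacna1a, 19 of 62 passed the edgeR test, a share of 30.6% against 6.77% of all genes tested, with 9 higher and 10 lower in mice labelled LPAR2-/-. Their log2 fold changes ran from -2.53 to 0.95. Cacna1a itself stood at 0.00316 among them. The nearest called neighbours were Mri1 (-0.64, SE 0.136, edgeR adjusted p = 0.0123) on the side of Lpar2 and Dand5 (-0.25, SE 0.0683, edgeR adjusted p = 0.0345) on the far side. Sequence flanking the mutated locus and the mutation itself cannot be told apart in this design.

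**Figure D5:**
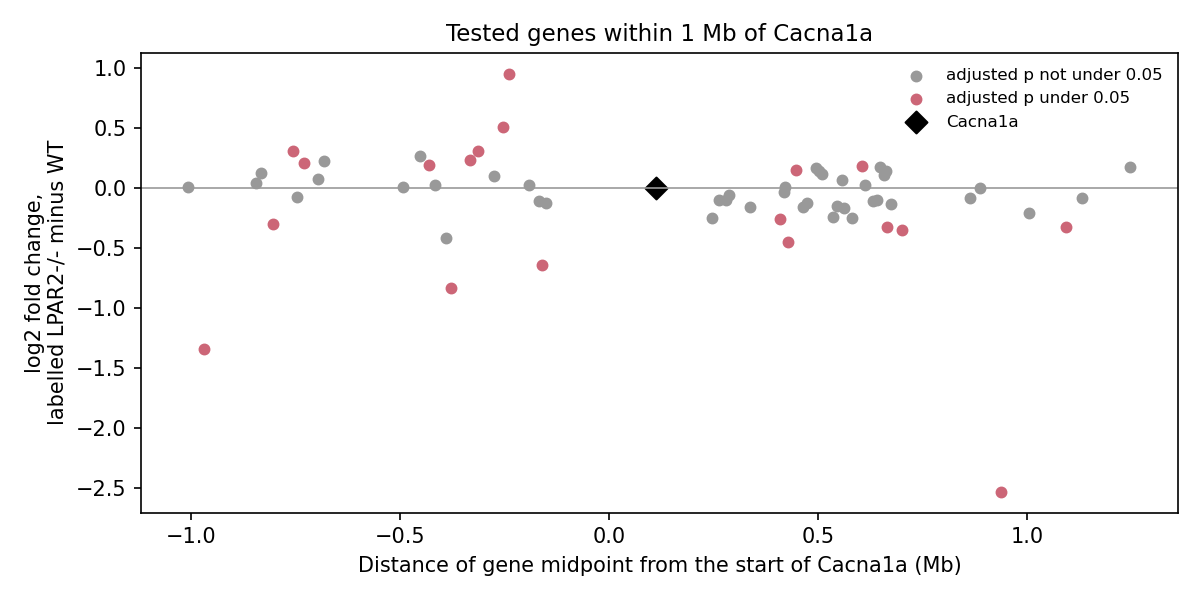
log2 fold change, mice labelled LPAR2-/- minus WT, of Cacna1a (diamond) and of 62 other tested genes within 1 Mb of it, by the distance of each gene's midpoint from the start of Cacna1a; the 19 genes with an adjusted p under 0.05 are coloured. Cacna1a lies at 0 between called genes on both sides.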

How the data were processed

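Total hippocampal RNA of 14 mice was sequenced by the authors after depletion of ribosomal RNA, trimmed with cutadapt 1.18, aligned with STAR and counted. The deposited count table gives reverse-stranded counts per gene over UCSC mm10 exons (featureCounts 1.6.3 per the file headers). A second deposited table holds normalized values of another unit, counts per kb divided by size factors, as the authors made it with DESeq2 1.22.2. Where counts were at least 50, 99.98% of its values lay within 1% of counts per kb times a single factor per library. That factor was the library's median ratio, and the size factors themselves were not recomputed. Its log2 columns were not used.

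Counts were tested with edgeR 4.0.16 (TMM scaling, filterByExpr, robust quasi-likelihood fit), with p-values adjusted over the 14897 genes tested, or over the genes left by the same filter where mice were left out. The fit was tested on simulated data first. Correlation p-values were adjusted over 28 pairs of genes and 144 marker relations. CPM scales counts to 1000000 per TMM-scaled library, and log2 CPM used a prior count of 2. Alternatives were DESeq2 1.42.0, limma 3.58.1 on the normalized values, other scalings and filters, a replicate block, and leaving out each mouse. Libraries were separate mice, and none of 42 pairs within groups agreed within sampling noise (lowest chi-square per degree of freedom 3.41).

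Described in full were the 8 channel genes and all auxiliary genes. Of the other lists, genes past the threshold and the highest and lowest were named. For each channel gene, the 3 genes of highest r were named. Members and lists were chosen with earlier results of these data known. Pore windows were read from GENCODE M21 transcripts and proteins were aligned globally with BLOSUM62. Reads of opposite-strand genes overlapping Cacna1c, Cacna1d and Cacna1h are kept apart by strand.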

Additional observations from a re-analysis of the deposited data

How the results depend on the processing

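Over 25 alternatives, the count of channel genes called stayed at 0 except with the dentate marker covariate, chosen after seeing the data, where it was 1 (Cacna1h, log2 fold change -0.36, or -0.278 with Tdo2 left out of the markers). Cacna1a and Cacna1b lay so near 0 that their sign turned. Cacna1b was 0.017 with upper quartile scaling, which shifted the median of all genes by 0.0202, so that it did not turn relative to that shift. It was 0.078 with the covariate and 0.05 with the covariate without Tdo2. Cacna1a was -0.043 without mice 2 and 3 labelled LPAR2-/-, and Cacna1d was -0.013 with the covariate. Leaving out 1 mouse gave -0.025 to 0.047 for Cacna1a and -0.031 to 0.031 for Cacna1b. The other genes kept their sign, at -0.21 to -0.11 for Cacna1c, 0.02 to 0.06 for Cacna1d, -0.10 to -0.03 for Cacna1e, -0.14 to -0.02 for Cacna1g, -0.21 to -0.06 for Cacna1h and -0.35 to -0.19 for Cacna1i. Of the auxiliary genes, Cacna2d1 (-0.00139 to 0.07) and Cacna2d2 (-0.21 to 0.03) turned sign and the other 7 tested did not. It gave 0 to 1 calls among the regulators. The regulators had 2 calls with DESeq2 and 0 with the covariate, and the store and removal genes had 2 with either covariate. Same-numbered mice correlated at -0.33 to 0.31, with 3 of 7 numbers above 0.1, so no consistent pairing was seen. Such correlations cannot decide whether the mice were paired by litter or day. With the replicate block the count of channel genes called was 0. Levels and class shares moved by less than 1 SD under the authors' normalized values, upper quartile scaling and leaving out each mouse.

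Counts of the 8 genes were not few, with 802 to 9903 per library each. Whether library totals had a part in their values was not tested. In Cacna1f and Cacna1s the counts were too few to describe a difference. Individual pores, splice forms and hippocampal subfields were not resolved. Correlations over 14 mice share library makeup and depth.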
